A study of Mus musculus with 10 samples.

Results

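The genes of the heterotrimeric G proteins and of the RGS proteins were followed in RNA sequencing libraries of the mouse medial habenula. They were taken by name from the deposited table: symbols beginning with Rgs, Gnb or Gng and a digit, with Gnai, Gna1 or Gnao, and Gnas, Gnal, Gnaq and Gnaz. Of 56691 rows, 56 matched, and 45 of these had a mean FPKM (fragments corrected for gene length and for sequencing depth) of at least 0.5 over the 10 libraries. The 45 genes were 11 alpha subunits, 5 beta subunits, 10 gamma subunits, 16 RGS genes of the RZ, R4, R7 and R12 families, and 3 others: the membrane anchor Rgs7bp, Rgs22, and Gnb1l, which carries the name but is not a G protein subunit. The 11 matching rows under the minimum were Gna14, Gna15, Rgs1, Rgs13, Rgs18, Rgs21, the anchor Rgs9bp and 4 pseudogenes. Gnb1l lay just inside the minimum at 0.672 FPKM and Gna15 just outside at 0.492 FPKM. In 44 of the 45 the mean was at least 0.5 FPKM in each group taken alone. The exception was Gnb3, at 0.63, 0.12, 0.35 and 0.52 FPKM in controls 1 to 4, which met the minimum only through the withdrawal group.

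A heterotrimeric G protein couples a membrane receptor to the inside of the cell. The active receptor loads the alpha subunit with GTP, and alpha then parts from the beta and gamma pair. Gs and Golf alpha stimulate adenylyl cyclase, Gi alpha inhibits it, and Gq alpha activates phospholipase C beta. The beta and gamma pair opens GIRK potassium channels and slows presynaptic calcium channels. RGS proteins speed GTP hydrolysis by alpha and so shorten the signal. In the medial habenula, a small nucleus whose cholinergic neurons carry many nicotinic receptors, such cascades stand behind the GABA-B, opioid and muscarinic receptors.

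The design asks which transcripts differ there during withdrawal from repeated nicotine. All 10 mice were wild type. In the withdrawal group (n = 6), nicotine ditartrate was injected intraperitoneally at 4 mg/kg, 2 times a day for 14 days, and saline replaced it from day 15. Controls (n = 4) received intraperitoneal saline throughout, and tissue from both groups was taken on day 17. Each mouse gave 1 library, so the p-values rest on the spread between mice. Age, sex and batch are not given in the labels. The source label speaks of cholinergic neurons sorted by flow cytometry, the series record of tissue. Transcripts of other cells were present in all 10 libraries, and no marker of the 12 lists examined was at 0 in any library.

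The libraries held between 15023448 and 22026333 counted reads, of which the 45 genes took 0.466% to 0.520%. Control 2 and withdrawal 2 stood apart. The summed level of 8 medial habenula markers, among them Chat and Chrnb4, was 14.6 and 12.7 CPM in these libraries, while the other 8 held 559 to 869 CPM (CPM, counts corrected for library size with TMM factors). The summed hippocampal and cortical neuron markers reached 2546 CPM in control 2. The comparison was therefore fitted with all 10 libraries and with the 8 others (3 controls, 5 withdrawal). Those 8 also differed in other cell types. The same hippocampal and cortical sum was 472, 928 and 539 CPM in controls 1, 3 and 4 and 318 to 419 CPM in withdrawal, with 3 of 8 markers lower past an edgeR adjusted p of 0.05 over all tested genes. The astrocyte sum was 2946 to 3454 CPM in controls and 2229 to 2600 CPM in withdrawal (2 of 6 markers lower). The oligodendrocyte sum was 11022 to 12281 CPM and 5831 to 10055 CPM (5 of 6 lower), and the precursor sum 201 to 213 CPM and 135 to 151 CPM (2 of 3 lower). These 4 sums did not overlap between the groups, whereas the habenula sum did, at 615 to 860 CPM and 559 to 869 CPM. All 8 habenula markers had higher means in withdrawal, and none passed. The choroid plexus and ependyma sum was 7045 to 9941 CPM in controls 1, 3 and 4. In withdrawal 1, 3, 4, 5 and 6 it was 2829, 194, 4465, 2185 and 9407 CPM. The GABAergic sum was 175 to 326 CPM in controls and 81.9 to 239 CPM in withdrawal, with all 3 markers lower in mean. No marker of either list passed. The thalamic sum was 184, 184 and 302 CPM in controls 1, 3 and 4 and 424, 295, 316, 509 and 156 CPM in withdrawal 1, 3, 4, 5 and 6. All 6 thalamic markers had higher means in withdrawal in the 8 libraries, and 1, Lef1, passed. In such bulk libraries, fewer cells of a type and less RNA per cell cannot be told apart.

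Promoter sequence of the genes that changed in the 8 libraries is shown here because cyclic AMP, which Gs and Gi regulate, acts on genes through the cyclic AMP response element. RefSeq promoters (GRCm38.p6, 250 bases before to 50 after a start) were at hand for 35 of the 45 genes, as 48 entries. The first lines give the 120 bases before the start of Rgs17 (chr10:5922401-5922520, minus strand) and of Rgs9 (chr11:109298182-109298301, minus strand), free of annotated exons. The lines for Gnas (chr2:174327699-174327728, plus strand) and Gng7 (chr10:81001457-81001486, minus strand) give the 30 bases around a match to the core motif of that element, TGACG, which lies on the opposite strand and is in capitals. The match begins 38 bases before a Gnas start and 109 bases before a Gng7 start. The 120 bases before each of these starts hold annotated exon sequence of the same gene. Some other Gnas starts and the other Gng7 start had no match in the 120 bases before them.
Rgs17: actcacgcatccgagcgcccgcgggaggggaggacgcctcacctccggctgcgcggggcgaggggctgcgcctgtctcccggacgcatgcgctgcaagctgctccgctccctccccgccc
Rgs9: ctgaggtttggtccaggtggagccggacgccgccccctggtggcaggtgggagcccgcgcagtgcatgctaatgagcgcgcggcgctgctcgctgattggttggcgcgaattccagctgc
Gnas: aagaggttggggCGTCAtcaggctggttag
Gng7: ccagagtggaacCGTCAccctctgctccct
The motif TGACG, searched on both strands, was in 14 of the 48 entries (29.2%), from 12 genes, and in 20.8% of all 32851 entries of the table. The full palindrome of the element, which contains this motif, was in 0 of the 48 and in 1.79% of all entries. Of the 6 changed genes with a promoter, 2 held the motif. A match is a run of letters and not a binding site, and the lack of one in this window says nothing of the factor.

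Per unit of gene length, Gnb1 and Gng3 were the most abundant of the 45 genes, with means of 121 and 76.5 FPKM over 10 libraries. Gnao1, the main alpha subunit of neurons, followed at 71.2 FPKM. Next came Gnai1, Gnb2, Gnai2, Gnas, Gng2 and Rgs4, between 49.99 and 41.7 FPKM. The RGS genes were led by Rgs4 and by Rgs5 (22.1 FPKM), an RGS gene of pericytes. At the other end were Gnb3, the beta subunit known from cone photoreceptors, at 1.09 FPKM, and Gnb1l. Alpha subunits lay between 13.5 and 71.2 FPKM, gamma subunits between 3.04 and 76.5 FPKM.

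**Figure D1:**
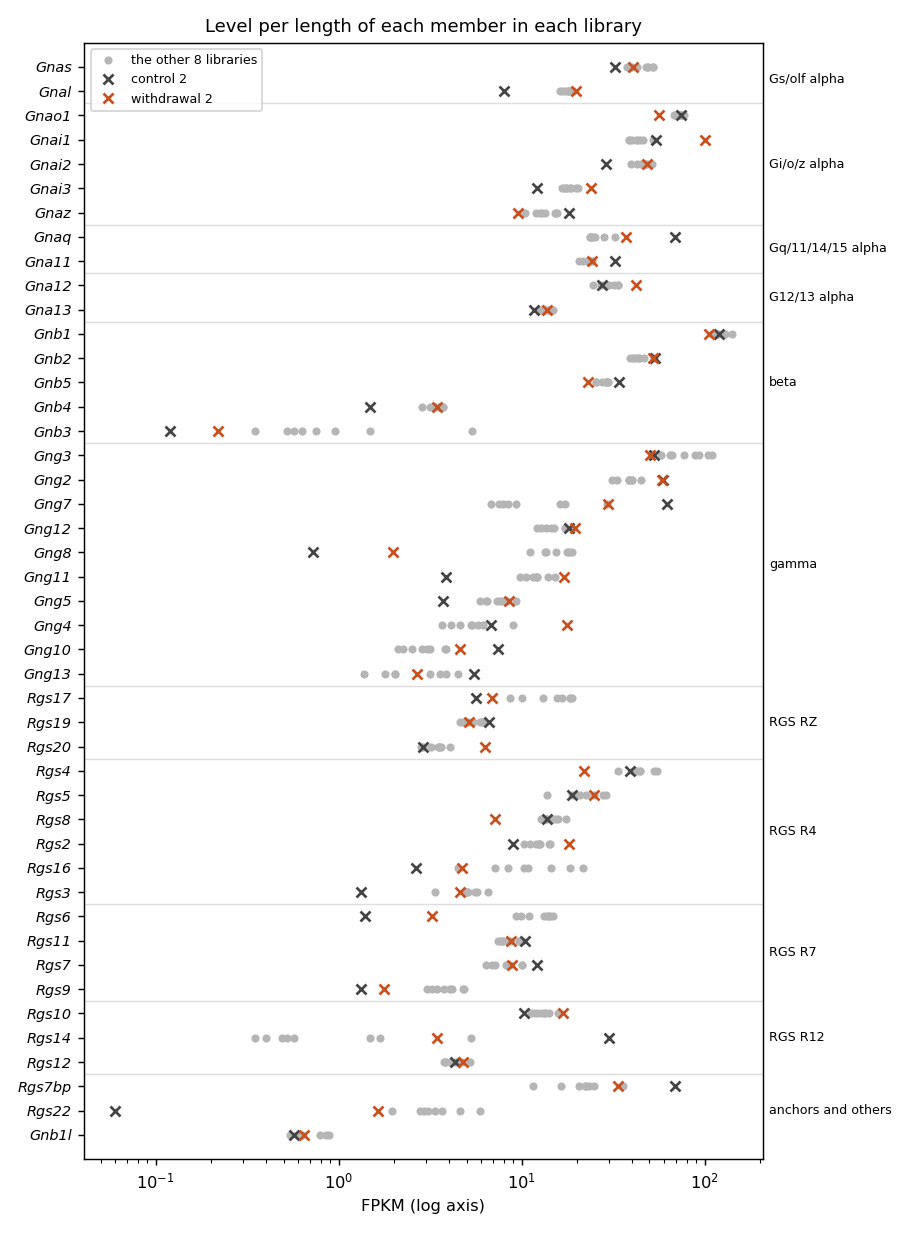
FPKM (log axis) of each of the 45 genes in each of the 10 libraries, grouped by class. Gray points are the 8 libraries with habenula transcripts and crosses are control 2 and withdrawal 2. Gng8, Rgs6 and Rgs17 lie lower in both crosses than in the 8, and Gnaq and Gng7 lie higher.

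The spread among the 8 libraries was close to that of all genes. The ratio of the highest to the lowest library was under 1.5 for 22 of the 45 genes, with a median of 1.52, against 1.5 over all 17426 genes tested. Gnao1 was the steadiest, with a ratio of 1.15, and Rgs14 the most variable, with 15.3, followed by Gnb3 at 14.8, Rgs16 at 4.78 and Gng7 at 4.49.

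Control 2 and withdrawal 2 both lay below the other 8 libraries in 6 of the 45 genes (13.3%), against 13.1% of all tested genes. They were Gng8, Rgs6, Rgs9, Rgs17, Rgs22 and Gnb3. Gng8, a gamma subunit known from the olfactory system, was at 1.28 and 3.04 CPM (control 2, then withdrawal 2), against 16.8 to 27.4 CPM elsewhere. Rgs6, an R7 family member that binds Gnb5 and acts on Gi and Go, was at 16.4 and 32.6 CPM, against 92.4 to 144 CPM. Rgs22 was at 0.427 CPM (8 counts) and 9.47 CPM, against 11.1 to 32.5 CPM. These genes were low where the habenula markers were low. Ccdc153, of the choroid plexus and ependyma list, was placed as Rgs22 was, at 0.427 and 24.5 CPM, against 33.1 to 72.0 CPM. The other markers of that list were not below the 8 libraries in withdrawal 2. The part of either tissue in these genes was not tested. Both libraries lay above the other 8 in 8 genes (17.8%), against 9.44% of all: Gna11, Gnai1, Gnaq, Gnb2, Gng2, Gng7, Gng10 and Gng12. Gnaq, the alpha subunit of Gq, was at 499 and 234 CPM, against 140.2 to 201 CPM.

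**Figure D2:**
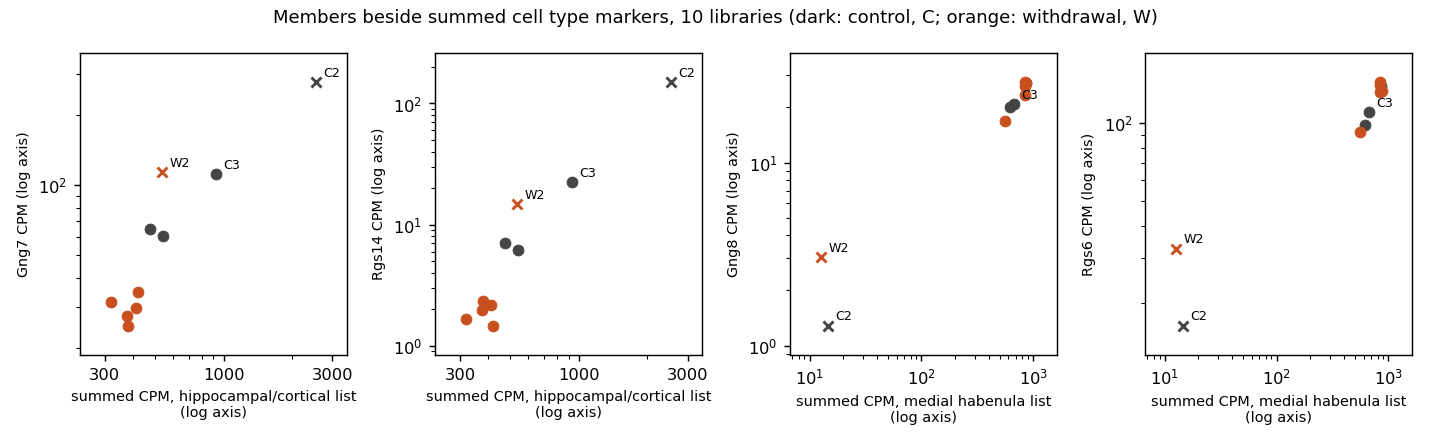
CPM of Gng7, Rgs14, Gng8 and Rgs6 (vertical) beside the summed CPM of a marker list (horizontal) in 10 libraries, both on log axes, with control in dark gray and withdrawal in orange. Gng7 and Rgs14 are highest in control 2, where hippocampal and cortical markers sum to 2546 CPM, and Gng8 and Rgs6 are lowest in control 2 and withdrawal 2, where habenula markers are lowest.

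With all 10 libraries, none of the 45 genes passed the threshold (edgeR quasi-likelihood test, adjusted p, here FDR, under 0.05 by Benjamini and Hochberg over 17426 genes), and 29 of all tested genes did (0.166%; 0.0287% rose and 0.138% fell). At an unadjusted p under 0.05 there were 12 of the 45, of which 7 were higher and 5 lower in withdrawal, against 14.9% of all genes. Gnb3, which met the FPKM minimum only through the withdrawal group, is among the 7. DESeq2 called 3 of them (Gnai2 and Gnas higher, Rgs14 lower) and 2.34% of all genes, and limma called 0 of them with either pseudocount (0.0861% of all genes on log2(FPKM + 1), 0.0402% on log2(FPKM + 0.1)). Without withdrawal 2 alone, edgeR called 6 of them, all among the 8 genes described below, and 4.67% of all genes. The FDR of the 45 lay between 0.250, for Gnai2, and 0.995. The median log2 difference of the 45 genes was 0.028, beside 0.017 for all tested genes.

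In 3 of the 45 genes (6.67%, against 3.27% of all tested genes, 1.7% higher and 1.57% lower) all 6 withdrawal libraries lay above all 4 controls: Gnai2, Gnb4 and Rgs10. Gnb4, a beta subunit, was at 41.9, 22.3, 36.5 and 39.4 CPM in controls 1 to 4 and between 42.2 and 45.6 CPM in withdrawal, with a median of 44.7 CPM. Rgs10, an R12 family protein abundant in microglia, was at 19.1, 20.7, 21.0 and 19.9 CPM in controls 1 to 4 and between 22.0 and 29.2 CPM in withdrawal, with a median of 23.0 CPM. Their log2 differences over 10 libraries were 0.34 (standard error 0.149, edgeR FDR 0.325) and 0.27 (standard error 0.0944, edgeR FDR 0.274). Neither passed in the 8 libraries, where the log2 differences were 0.18 and 0.22 (edgeR FDR 0.0900 and 0.0935). The summed microglia markers were 167 to 185 CPM in controls and 136 to 177 CPM in withdrawal in the 8 libraries, and their part in the Rgs10 values was not tested.

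Without control 2 and withdrawal 2, 8 of the 45 genes changed (17.8%), against 12.1% of all tested genes (2116). Gnas, Gnai2, Gng3, Rgs9 and Rgs17 rose (5.38% of all genes rose), and Gng7, Gng12 and Rgs14 fell (6.77% fell). At an unadjusted p under 0.05 there were 22 of the 45 (48.9%, against 28.9%). The groups did not overlap in 13 (28.9%, against 21.9%), of which 8 were higher (10.8% of all genes) and 5 lower (11.1%). The median log2 difference was 0.14, beside 0.011 for all genes, and the mean was higher in withdrawal for 29 of the 45 (64.4%, against 51.9%). Gnb3, which met the FPKM minimum only through the withdrawal group, is among the 22 and the 29. The other 37 genes had FDR between 0.0519 and 0.978. DESeq2 called 11 of the 45 and 17.3% of all genes, and limma called 9, against 11% on log2(FPKM + 1) and 10.7% on log2(FPKM + 0.1); the 8 were among those called by each.

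**Figure D3:**
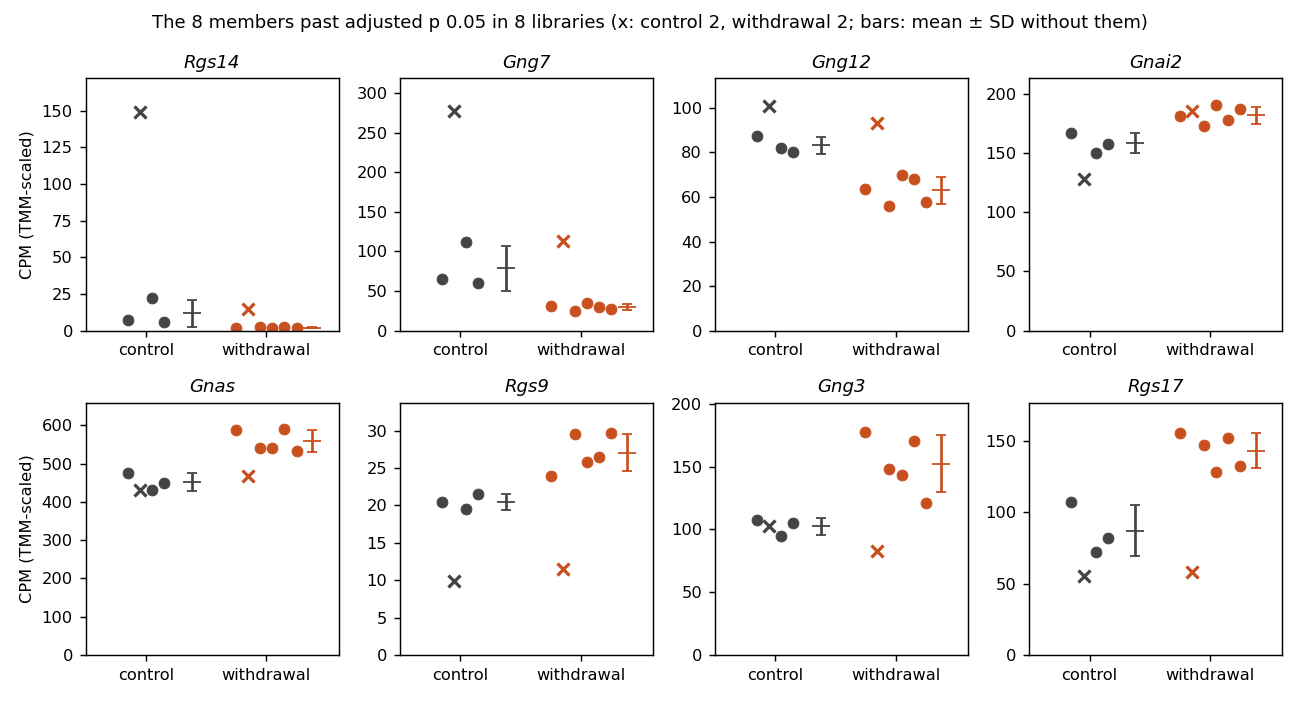
CPM of the 8 genes that passed edgeR adjusted p 0.05 in 8 libraries, by group, with mean and SD beside the points and with control 2 and withdrawal 2 as crosses, which the mean and SD leave out. Withdrawal 2 lies among the controls for Gng7, Gng12 and Rgs14, and below the controls other than control 2 for Rgs9 and Rgs17.

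Among the stimulatory alpha subunits, Gnas (ENSMUSG00000027523), which encodes Gs alpha, rose. It was at 477, 432, 432 and 448 CPM in controls 1 to 4 and at 588, 466, 540.4, 540.4, 591 and 534 CPM in withdrawal 1 to 6. Withdrawal 2 lay below control 1, and without the 2 libraries that stood apart the groups did not overlap. The mean rose from 452 ± 22.6 CPM (SD, n = 3) to 559 ± 28.2 CPM (SD, n = 5), a log2 difference of 0.30 (standard error 0.0620, edgeR FDR 0.0144). With 10 libraries it was 0.28 (standard error 0.0812, edgeR FDR 0.259). The call held whichever of the 8 libraries was left out, with adjusted p between 0.0107 and 0.0493. Gnas shares exon sequence on the opposite strand with Nespas, and the strand setting of the counting was not given in the sources used here. RefSeq gives several Gnas starts, and a count per gene does not tell the transcripts from these starts apart. Gnal, which encodes Golf alpha, had 189 ± 9.42 and 199 ± 13.4 CPM in the 8 libraries (log2 difference 0.07, edgeR FDR 0.553), and control 2 was low at 105 CPM.

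Of the 5 Gi, Go and Gz alpha subunits, Gnai2 (ENSMUSG00000032562), an inhibitor of adenylyl cyclase found in neurons and glia, rose. It was at 167, 128, 150.5 and 158 CPM in controls 1 to 4 and at 181, 186, 173, 191, 178 and 187 CPM in withdrawal 1 to 6, with no overlap in either set of libraries. In 8 libraries the log2 difference was 0.20 (standard error 0.0536, edgeR FDR 0.0403), and the call was lost whichever of the 8 was left out, with adjusted p between 0.0504 and 0.174. Gnao1 had 789 ± 40.5 CPM (controls) and 792 ± 43.5 CPM (withdrawal) in the 8 libraries, a log2 difference under 0.01 in size (0.0036, standard error 0.0649, edgeR FDR 0.978), and its sign turned in 4 of the alternative settings. Gnai1, Gnai3 and Gnaz, here as below for members given beside a relative, were named after their values were seen and had log2 differences between -0.11 and 0.30 in the 8 libraries, none past the threshold in edgeR. DESeq2 called Gnaz there, as did edgeR without withdrawal 6.

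Neither of the Gq family genes, Gnaq and Gna11, passed. Gnaq was at 172, 499, 201 and 145 CPM in controls 1 to 4 and between 140.2 and 234 CPM in withdrawal, with a median of 148 CPM. Its log2 difference was -0.24 in 8 libraries (standard error 0.0945, edgeR FDR 0.124) and -0.66 in 10, where control 2 held the highest value. Without control 4 the 8-library fit called it, with a log2 difference of -0.36 (edgeR FDR 0.0239). Gna12 and Gna13, the G12 family, had log2 differences of -0.17 and -0.05 in 8 libraries (edgeR FDR 0.265 and 0.652).

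Gnb1, Gnb2, Gnb4 and Gnb5 had higher means in withdrawal in the 8 libraries, and none of the 5 beta subunits passed the threshold. Gnb3 was also higher, but it met the FPKM minimum only through the withdrawal group, so its direction carries no weight here. Gnb1, the beta subunit with the highest FPKM, had 481 ± 14.1 and 537 ± 40.1 CPM, a log2 difference of 0.16 (standard error 0.0687, edgeR FDR 0.160). Gnb5, the atypical beta subunit that binds R7 family RGS proteins in place of gamma, was at 78.0, 79.3 and 83.9 CPM in controls 1, 3 and 4 and between 86.5 and 91.4 CPM in the 5 withdrawal libraries. These groups did not overlap, and the log2 difference was 0.15 (standard error 0.0506, edgeR FDR 0.0774). limma on log2(FPKM + 1) called it (adjusted p 0.0371). Control 2, at 125 CPM, and withdrawal 2, at 72.3 CPM, reversed the order, and with 10 libraries the log2 difference was -0.08. Gnb3, named after its values were seen, was at 13.5 CPM in withdrawal 3, and the other 9 libraries held 0.374 to 3.74 CPM.

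Of the 10 gamma subunits in the 8 libraries, Gng3 rose, Gng7 and Gng12 fell, and the other 7 did not pass. Gng3 (ENSMUSG00000071658), a gamma subunit of neurons, was at 108, 103, 94.8 and 105 CPM in controls 1 to 4 and at 178, 83.1, 148, 143, 171 and 121 CPM in withdrawal 1 to 6. Withdrawal 2 was the lowest of the 10 libraries, and the other 5 withdrawal libraries were the highest. Without the 2 libraries the mean rose from 103 ± 6.80 to 152 ± 22.7 CPM, a log2 difference of 0.57 (standard error 0.120, edgeR FDR 0.0162). With 10 libraries it was 0.46 (standard error 0.185, edgeR FDR 0.305). Without control 3 the adjusted p was 0.0595. Of the 5 withdrawal libraries, withdrawal 1 and 5 were the highest in Gng3 and withdrawal 6 the lowest, as in the thalamic sum (424, 509 and 156 CPM), and the part of thalamic tissue in the rise was not tested. Gng3 shares exon sequence on the opposite strand with Bscl2.

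Gng7 (ENSMUSG00000048240), the gamma subunit that pairs with Golf in the striatum, was at 64.7, 277, 111 and 60.3 CPM in controls 1 to 4 and at 31.5, 114, 24.8, 34.6, 29.7 and 27.4 CPM in withdrawal 1 to 6. The 5 withdrawal libraries other than withdrawal 2 were the lowest of all, and control 2 was the highest. In the 8 libraries the mean fell from 78.8 ± 28.4 CPM (SD, n = 3) to 29.6 ± 3.76 CPM (SD, n = 5), 2.67-fold (log2 difference -1.42, standard error 0.191, edgeR FDR 0.00305). With 10 libraries the log2 difference was -1.56 (standard error 0.553, edgeR FDR 0.275). Controls 2 and 3, the highest of the controls in Gng7, were also the highest of the 10 libraries in hippocampal and cortical markers, while withdrawal 2, at 114 CPM of Gng7, had a sum of 536 CPM. Without control 3 the 8-library log2 difference was -1.09 (edgeR FDR 0.00119). Among the 3 controls and 5 withdrawal libraries the hippocampal and cortical sum did not overlap either, and its part in the Gng7 change was not tested. The 7 striatal markers summed to 180 to 204 CPM in these controls and to 107 to 220 CPM in withdrawal, and 0 of the 6 tested passed.

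Gng12 (ENSMUSG00000036402), a widely expressed gamma subunit, was at 87.3, 101, 82.0 and 80.2 CPM in controls 1 to 4 and at 63.6, 93.3, 55.8, 69.8, 68.0 and 57.8 CPM in withdrawal 1 to 6. Withdrawal 2 lay among the controls and the other 5 lay below them. In 8 libraries the mean fell from 83.1 ± 3.69 to 63.0 ± 6.16 CPM (log2 difference -0.40, standard error 0.0809, edgeR FDR 0.0137), and the call held whichever of the 8 was left out. With 10 libraries it was -0.36 (FDR 0.294). The astrocyte, oligodendrocyte and precursor sums were lower in the same 5 libraries, and their part was not tested. Gng8 was at 20.0, 20.9 and 27.4 CPM in controls 1, 3 and 4 and at 16.8 to 27.4 CPM in the 5 withdrawal libraries (log2 difference 0.08, edgeR FDR 0.779). Its lowest values of the 8, in withdrawal 1 and control 1, came from the libraries with the lowest habenula sums, 559 and 615 CPM.

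On the per-length scale the shares of Gng3, Gng7 and Gng12 in the gamma pool did not overlap between the groups of the 8 libraries. Gng3 made up 33.8 ± 3.49% of the summed gamma FPKM in controls (SD, n = 3) and 46.9 ± 3.32% in withdrawal (SD, n = 5). Gng7 made up 11.2 ± 3.52% and 3.98 ± 0.465%, and Gng12 9.51 ± 0.490% and 6.79 ± 0.554%. The ratio of Gng3 to Gng7 FPKM was 3.84, 1.96 and 4.02 in controls 1, 3 and 4 and between 9.52 and 13.8 in the 5 withdrawal libraries. In control 2 and withdrawal 2 it was 0.854 and 1.68, so withdrawal 2 lay with the controls. Shares were not tested on their own, since each rests on the genes above.

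**Figure D4:**
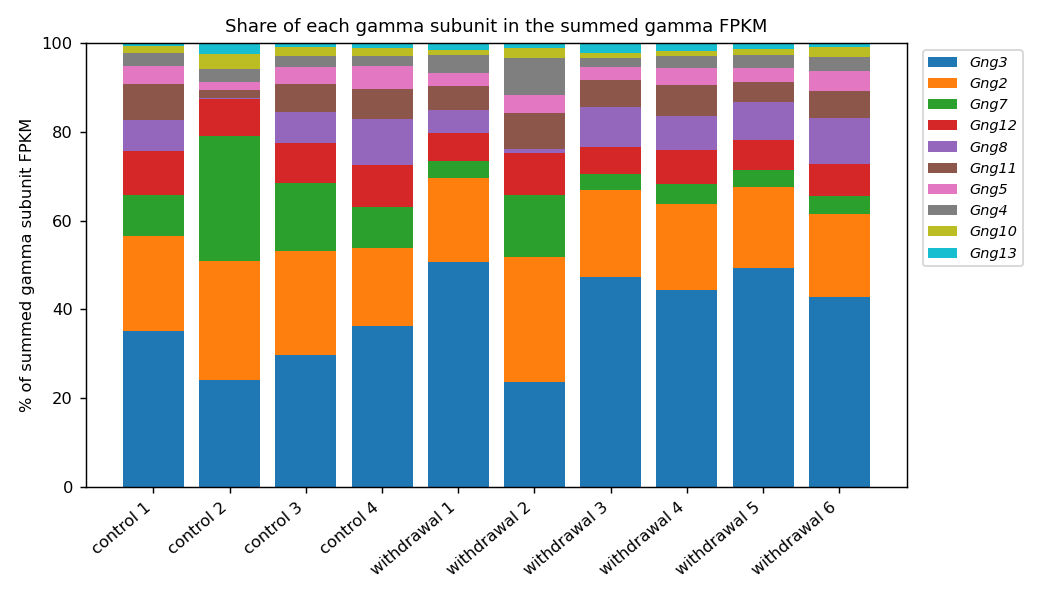
Share of each of 10 gamma subunits in the summed gamma FPKM (percent, stacked) in each library. Gng3 takes 42.9% or more in the 5 withdrawal libraries other than withdrawal 2 and 36.4% or less in the other 5 libraries, and Gng7 is widest in control 2.

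Among the RGS genes, 3 of 16 changed in the 8 libraries (18.8%, against 12.1% of all tested genes), from 3 families. Rgs14 (ENSMUSG00000052087), an R12 family scaffold that binds Gi alpha and is known from hippocampal area CA2, fell. It was at 7.02, 149, 22.4 and 6.17 CPM in controls 1 to 4 and at 1.66, 14.8, 2.35, 1.46, 2.17 and 1.97 CPM in withdrawal 1 to 6. The 5 low values rest on 25 to 47 counts each, and those of controls 1, 3 and 4 on 107 to 368 counts. In 8 libraries the mean fell from 11.9 ± 9.13 to 1.92 ± 0.362 CPM, with a log2 difference of -2.61 (standard error 0.406, edgeR FDR 0.00523), and in 10 it was -3.49 (standard error 1.03, edgeR FDR 0.261). The order of the 3 highest libraries, control 2, control 3 and withdrawal 2, was that of Neurod6, a transcription factor of hippocampal and cortical excitatory neurons, at 336, 56.5 and 35.6 CPM. Neurod6 was at 15.9 and 3.22 CPM in controls 1 and 4 and at 1.07 to 1.97 CPM in the other 5 withdrawal libraries. Without control 3 the log2 difference of Rgs14 was -1.77 (edgeR FDR 0.00242), with Neurod6 still higher in both remaining controls. The part of hippocampal tissue in this change was not tested.

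Rgs17 (ENSMUSG00000019775), an RZ family protein that acts on Gi and Gz, rose. It was at 107, 55.2, 72.0 and 82.2 CPM in controls 1 to 4 and at 156, 58.0, 147, 128, 152 and 132 CPM in withdrawal 1 to 6. The 2 libraries with few habenula transcripts were the lowest, and the other 5 withdrawal libraries were the highest. In 8 libraries the mean rose from 87.0 ± 18.0 to 143 ± 12.2 CPM, 1.64-fold (log2 difference 0.72, standard error 0.123, edgeR FDR 0.00783). In 10 libraries the log2 difference was 0.70 (standard error 0.272, edgeR FDR 0.294). The call held whichever of the 8 was left out, with log2 differences between 0.59 and 0.88. The habenula marker sums of the 8 overlapped. All 8 habenula markers had higher means in withdrawal (median log2 difference 0.12), and none passed the test. The part of habenula tissue in the Rgs17 rise was not tested. Its family members Rgs19 and Rgs20 had log2 differences of 0.18 and 0.14 (edgeR FDR 0.300 and 0.499).

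Rgs9 (ENSMUSG00000020599), the R7 family member of striatum and retina, was at 20.5, 9.94, 19.5 and 21.6 CPM in controls 1 to 4 and at 23.9, 11.5, 29.6, 25.8, 26.5 and 29.7 CPM in withdrawal 1 to 6. The 2 libraries that stood apart were the lowest, and the remaining groups did not overlap. In 8 libraries it rose from 20.5 ± 1.06 to 27.1 ± 2.52 CPM (log2 difference 0.40, standard error 0.0882, edgeR FDR 0.0195). With 10 libraries the log2 difference was 0.45 (FDR 0.455). The call was lost without control 1 (edgeR FDR 0.0652) and without control 3 (0.0977). The other R7 genes, Rgs6, Rgs7 and Rgs11, also had higher means in withdrawal, with log2 differences of 0.15 to 0.20, and none passed.

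None of the 6 R4 family genes passed. Rgs4, a short RGS protein of neurons, was at 126 to 129 CPM in controls 1, 3 and 4 and ranged from 100.2 to 169.8 CPM in the 5 withdrawal libraries (log2 difference 0.14, edgeR FDR 0.576). Rgs2, an inhibitor of Gq, had 44.9 ± 0.193 and 43.7 ± 5.57 CPM in the 8 libraries. Rgs16 was at 19.5, 7.32, 10.6 and 23.7 CPM in controls 1 to 4 and at 42.6, 11.1, 24.4, 33.6, 50.6 and 16.1 CPM in withdrawal 1 to 6, with overlapping groups (8 libraries: log2 difference 0.90, standard error 0.367, edgeR FDR 0.138). Without withdrawal 6 edgeR called it (log2 difference 1.06, FDR 0.0369). Across the 5 withdrawal libraries other than withdrawal 2, the order of Rgs16 was that of the thalamic sum. The same order held for Rgs4 and for Rgs3, the latter named after its values were seen. The part of thalamic tissue in these genes was not tested. Rgs5 had 118 ± 13.9 and 87.1 ± 17.6 CPM (log2 difference -0.45, standard error 0.153, edgeR FDR 0.0854). The summed endothelial and mural markers were at 219 to 243 CPM in controls and 194 to 248 CPM in withdrawal. In that joint list 5 markers were lower and 3 higher in mean, with log2 differences from -0.36 (Abcc9) to 0.24 (Cldn5), and none passed. A joint sum does not give the mural part alone, and that part was not tested. DESeq2 called Rgs5 in the 8 libraries (adjusted p 0.0383). Rgs7bp, which holds R7 complexes at the membrane, was at 174, 572, 254 and 156 CPM in controls 1 to 4 and between 78.4 and 242 CPM in withdrawal, with a median of 150 CPM (8 libraries: log2 difference -0.58, standard error 0.235, edgeR FDR 0.138).

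**Figure D5:**
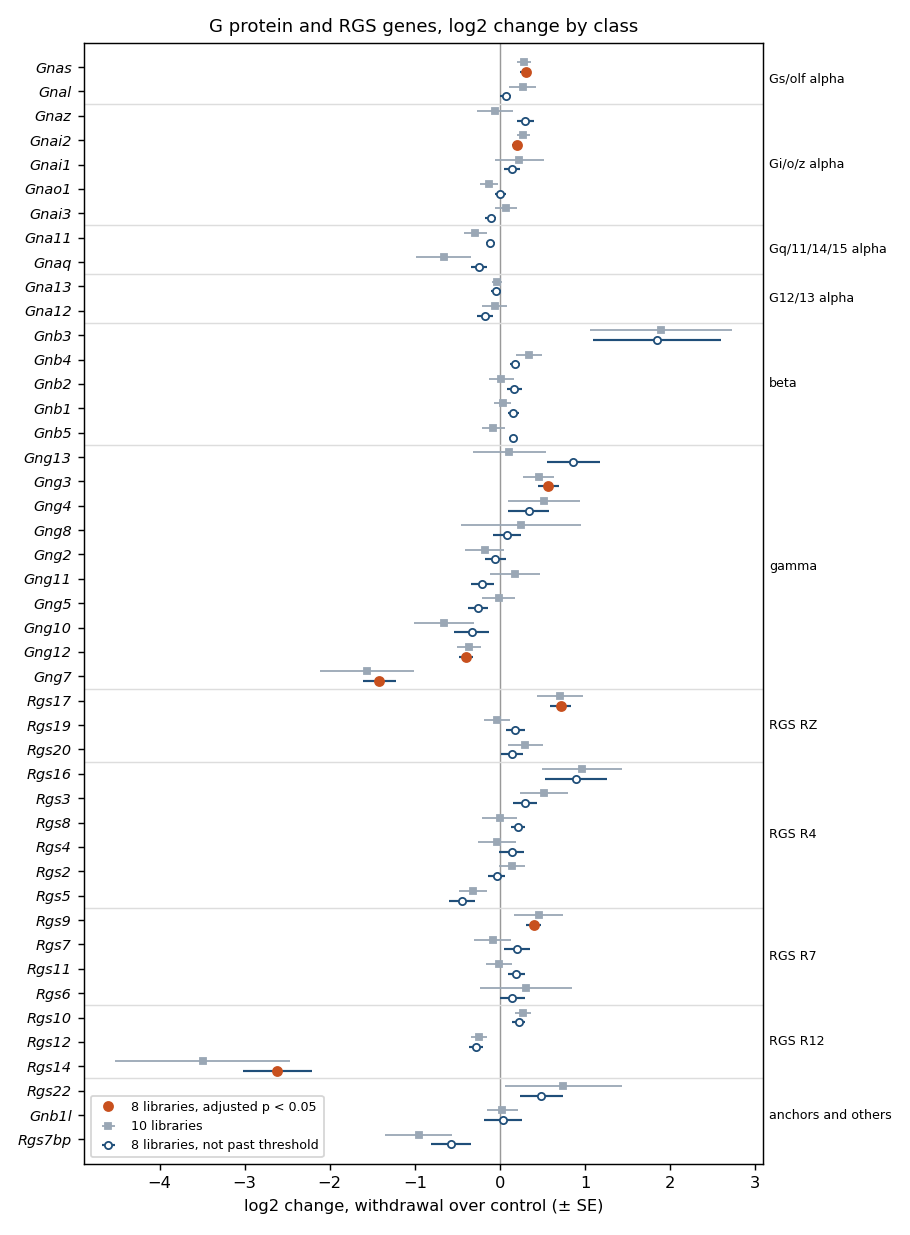
Log2 difference of each gene, withdrawal over control, with its standard error, from the edgeR fits of 10 libraries (gray squares) and 8 libraries (circles, filled orange where adjusted p is under 0.05). Rgs14 and Gng7 lie farthest below 0 in both fits, and Gnb1, Gnb2, Gnb4 and Gnb5 lie above 0 in the fit of 8 libraries. Gnb3 also lies above 0, but it met the FPKM minimum only through the withdrawal group.

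The direct partners of G proteins were read from a list of 40 genes, of which 38 were tested: adenylyl cyclases, phospholipases C beta, GIRK channels, receptor kinases, arrestins, chaperones and further RGS-domain proteins. With 10 libraries 0 of the 38 passed in edgeR (8 at an unadjusted p under 0.05), with FDR from 0.264 to 0.995, and DESeq2 called 1. With 8 libraries 12 passed (31.6%, against 12.1% of all genes), of which 6 rose and 6 fell. Among the cyclases, Adcy1, the calcium-stimulated cyclase, was at 530.1, 2080, 1030 and 454 CPM in controls 1 to 4 and at 109, 866, 92.6, 150, 123 and 75.6 CPM in withdrawal 1 to 6. Its 8-library log2 difference was -2.62 (standard error 0.276, edgeR FDR 0.00105), and with 10 libraries it was -2.12 (FDR 0.280). Adcy9 fell (log2 difference -1.01, edgeR FDR 0.00629) and Adcy8, another calcium-stimulated cyclase, rose (log2 difference 0.47, edgeR FDR 0.0189).

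The GIRK channel genes moved in both directions in the 8 libraries, and none passed with 10. Kcnj6 (log2 difference -1.46, edgeR FDR 0.0072) and Kcnj3 (-0.81, 0.0252) fell, and Kcnj9 rose (0.53, 0.0413). Kcnj5, named after its values were seen, had a log2 difference of 0.98 and did not pass (0.0843). Plcb1, the phospholipase downstream of Gq, fell (log2 difference -0.75, edgeR FDR 0.0219). Adcy1, Adcy9, Kcnj3, Kcnj6 and Plcb1 were each highest in control 2 and, of the 8 libraries, in control 3, as Gng7 and Rgs14 were. Without control 3 the number of partner genes past the threshold was 6. Of those that bind alpha subunits in place of beta and gamma, Gpsm2 fell (log2 difference -0.85, edgeR FDR 0.00128) and Gpsm1 rose (0.30, 0.0183). Grk3, a receptor kinase recruited by beta and gamma, rose, with 95.9 to 109 CPM in controls 1, 3 and 4 and 126 to 173 CPM in the 5 withdrawal libraries (log2 difference 0.55, standard error 0.101, edgeR FDR 0.00977). Gprasp1, which sorts receptors for degradation, and Axin2, a Wnt pathway scaffold with an RGS domain, rose by 0.39 and 0.27 on the log2 scale (edgeR FDR 0.0147 and 0.0389).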

How the data were processed

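RNA sequencing data of the medial habenula of 10 mice were analysed (4 controls, 6 in nicotine withdrawal). Per the file headers, the authors deposited for each of 56691 Ensembl genes and each library a raw read count and an FPKM value. Per the submitters' processing notes, cutadapt 1.9.1, HISAT2 2.2.1 and HTSeq 0.6.1 were used with build mm39. Annotation release and strand setting are not given in the sources used here. GENCODE M21 supplied symbols for 52073 identifiers, and in it 19 of the 45 genes share exon sequence with another gene (16 on the opposite strand). RefSeq promoters are of GRCm38.p6, and were not joined to the counts by position.

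The 17426 genes whose mean FPKM reached 0.5 were tested on their counts with the quasi-likelihood test of edgeR 4.0.16 in R 4.3.3, with TMM factors, no fold threshold and Benjamini-Hochberg adjustment over all tested genes, 2-sided. The script was tested on simulated data. Means are of TMM-scaled CPM, and log2 changes carry the model's SE. Alternatives were DESeq2 1.42.0, limma 3.58.1 on log2(FPKM + 1) and log2(FPKM + 0.1), RLE factors, other filters, a replicate block and each library left out. Total counts were 15023448 to 22026333 per library, and PCR reads without molecular identifiers make counting precision a lower bound on the error.

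The genes and lists were chosen with earlier results of these data known. Named were the genes past the threshold in either fit, in each class the gene with the highest mean FPKM and that with the smallest unadjusted p in 8 libraries, 13 listed genes, and the 5 with the largest ratio of highest to lowest library (24 in all). Partner genes were named where they passed.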

Additional observations from a re-analysis of the deposited data

Results flagged for a closer look

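Of the 24 named genes, 72 groups were examined (controls, withdrawal, and withdrawal without withdrawal 2). In 12 the highest or lowest library was far from the others by Dixon's criterion. That criterion is set to be met by chance in about 1 of 20 groups. The count cannot be read against this rate. Many of the genes were named for their p-value or their spread in these data, and the withdrawal groups share libraries. Control 2 gave 4 of these, withdrawal 2 gave 7 and withdrawal 1 gave 1, and in no other library was a value set apart.

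Control 2 was the highest control in Gnaq (499 CPM, against 145 to 201 CPM), Gnb5 (125 CPM, against 78.0 to 83.9 CPM) and Rgs14 (149 CPM, against 6.17 to 22.4 CPM). It was the lowest in Rgs2 (38.3 CPM, against 44.7 to 45.0 CPM).

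Withdrawal 2 was the highest of its group in Gnaq (234 CPM, against 140.2 to 150.4 CPM), Gng12 (93.3 CPM, against 55.8 to 69.8 CPM), Gng7 (114 CPM, against 24.8 to 34.6 CPM) and Rgs14 (14.8 CPM, against 1.46 to 2.35 CPM). It was the lowest in Gnb5 (72.3 CPM, against 86.5 to 91.4 CPM), Rgs9 (11.5 CPM, against 23.9 to 29.7 CPM) and Rgs17 (58.0 CPM, against 128 to 156 CPM). Both libraries also had habenula marker sums of 14.6 and 12.7 CPM. Without withdrawal 2, withdrawal 1 was the lowest of 5 in Rgs6 (92.4 CPM, against 132 to 144 CPM), and it also had the lowest habenula sum of the 8 libraries, 559 CPM.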

How the results depend on the processing

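Of 408 alternative results for the named genes with 10 libraries, 387 kept their direction and side of the threshold, 9 newly passed and 12 reversed; of 360 with 8 libraries, 329, 9 and 7, and 15 lost the call. With 10 libraries, DESeq2 called 407 genes and 3 of the 45 (3 named), and 1 partner gene; limma called 15 genes on log2(FPKM + 1) and 7 on log2(FPKM + 0.1). Leaving out 1 library gave 4 to 814 genes, 0 to 6 of the 45, 0 to 6 named and 0 to 4 partner genes, with the highest counts without withdrawal 2. The median log2 change of the 45 genes, 0.028, was 0.11 with limma at either pseudocount and -0.044 to 0.10 with 1 library left out. With 8 libraries, leaving out 1 gave 907 to 3007 genes, 5 to 13 of the 45, 5 to 9 named and 6 to 14 partner genes. The fewest came without control 3 and the most without withdrawal 6. Without control 3, 29.99% of the calls were higher in withdrawal, against 44.3% with 8 libraries. The cause was not tested in any of these.

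Some directions reversed. Most of these log2 differences were near 0, but those of Gng8 and Rgs6 with 10 libraries were 0.25 and 0.31. With 10 libraries and 1 left out, Gnb1 ranged from -0.024 to 0.12 (below 0 in 4 settings), Gnb5 from -0.17 to 0.11 (above 0 without control 2), Gng8 from -0.14 to 0.55, Rgs6 from -0.043 to 0.58 (both below 0 without control 2) and Rgs4 from -0.13 to 0.082 (above 0 without control 2, withdrawal 2 or withdrawal 6). Gnb5 was 0.015 and 0.016 with limma (pseudocount 1 and 0.1). With 8 libraries and 1 left out, Gnao1 ranged from -0.047 to 0.022 (below 0 in 3 settings, and -0.0056 with no filter), Gng8 from -0.0089 to 0.23 (below 0 without control 1) and Rgs2 from -0.092 to 0.013 (above 0 without withdrawal 1).

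With a replicate block, edgeR called 0 genes with 10 libraries. With 8 it called 1093, 7 of the 45 (5 of the 8 called without it) and 6 partner genes, and Gng8 was -0.049. Same-numbered libraries correlated at 0.031, 0.30, -0.15 and 0.31, so the numbers were not taken as pairs. Depth limits the low genes: the 5 low withdrawal values of Rgs14 rest on 25 to 47 counts each.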

Other observations

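The summed FPKM of each class, with control 2 and withdrawal 2 left out, gives the makeup of the whole module and was not tested. The 5 beta subunits summed to 184 ± 4.91 FPKM in controls (SD, n = 3) and 209 ± 9.60 FPKM in withdrawal (SD, n = 5), the 11 alpha subunits to 341 ± 4.77 and 357 ± 6.88 FPKM, the 16 RGS genes to 174 ± 7.92 and 194 ± 14.5 FPKM, and the 10 gamma subunits to 187 ± 7.14 and 201 ± 14.2 FPKM. The groups overlapped for the RGS and gamma sums. Within the alpha subunits, Gnas took 11.8 ± 0.562% in controls and 14.0 ± 0.553% in withdrawal, and Gnao1 took 21.2 ± 1.29% and 20.5 ± 0.625%. Gnb1 took 61.9 ± 0.820% and 61.4 ± 1.70% of the beta subunits. Among the RGS genes, Rgs4 took 23.9 ± 0.577% and 23.7 ± 2.95%, Rgs5 15.1 ± 1.31% and 10.1 ± 2.34%, and Rgs17 6.09 ± 1.21% and 9.10 ± 0.621%. In the 2 libraries left out the alpha pool was unlike the rest: Gnaq took 18.6% in control 2 and Gnai1, named after its values were seen, took 24.1% in withdrawal 2.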
